A study of Mus musculus with 4 samples.

Results

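The 51 genes described here encode the proteins of the nuclear pore and the carriers that move cargo through it, and their ribosome-protected fragments (RPFs) were followed in leptotene/zygotene spermatocytes of control against *Eef1g*-cKO mice. Members were taken by gene symbol alone: symbols that begin with Nup and a digit or Nupl, Kpna or Kpnb, Ipo, Xpo or Tnpo, and in addition *Ran*, *Rangap1*, *Ranbp1*, *Ranbp2*, *Rcc1*, *Tpr* and *Cse1l*. They are 51 of the 11598 genes in the table, and all 51 passed the filter on low values, a mean of at least 1 FPKM (RPF reads per kilobase of the gene and per 1000000 reads on genes). The GRCm38.p6 annotation holds 53 protein-coding genes that fit these symbols, of which *Kpna7* and *Nup35* were not analysed here. Ribo-seq digests lysates with RNase I and sequences the mRNA left inside ribosomes, so the abundance of RPFs on a gene is a measure of the ribosomes on its mRNA and not of the mRNA or the protein.

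The cells came from testes of mice aged 12 dpp (days postpartum) and were sorted by FACS as leptotene and zygotene spermatocytes, the stages of meiotic prophase I in which chromosomes begin to pair and recombine. In *Eef1g*-cKO mice the germ cell Cre driver *Stra8*-GFPCre deletes exons 2 to 7 of a floxed *Eef1g*, the gene of translation elongation factor eEF1G, on a C57BL/6J background. This driver acts from spermatogonia onward, so the gene is lost in male germ cells and not in the somatic cells of the testis. Control mice are Wild type in the labels and littermates in the methods. Each genotype has 2 libraries, stated by the submitters to be independent biological replicates, with no further word on how many animals each holds.

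Proteins and RNA cross the nuclear envelope only through nuclear pore complexes. A pore is built from an outer ring of Y-shaped complexes, an inner ring, transmembrane anchors, filaments on the cytoplasmic face and a basket on the nuclear face, and its channel is filled by nucleoporins rich in phenylalanine-glycine (FG) repeats. Importin alpha proteins recognise nuclear localisation signals and bind importin beta, other importins bind their cargo directly, and exportins carry cargo outward. The GTPase Ran gives the direction: the exchange factor RCC1 on chromatin loads it with GTP in the nucleus. In the cytoplasm RANGAP1, with RANBP1 and RANBP2, makes Ran hydrolyse this GTP to GDP.

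The 6 members that passed the unadjusted test given further on are shown first by their start codons, with 12 bases before the ATG and the codons that follow it, as the places where ribosomes begin to translate these mRNAs (the reads themselves were counted over whole genes). The letters are those of the RefSeq Select transcript in GRCm38.p6 and the capitals mark the start codon.
Kpna4: gccggcccggccATGgcggacaacgag
Kpna1: ggagccgaaatcATGtccacaccagga
Nup54: tgctcccgcgacATGgctttcaatttt
Nupl1: ccaagggccgccATGgccacggggttc
Rangap1: gccactgcagccATGgcctctgaagac
Rcc1: gaggacaagaagATGccacccaagcgc
The start codons lie in coding exons at chr3:69126798-69126800 on the minus strand for *Kpna4*, chr16:36000187-36000189 on the plus strand for *Kpna1*, chr5:92435068-92435070 on the minus strand for *Nup54*, chr14:60251267-60251269 on the minus strand for *Nupl1*, chr15:81724595-81724597 on the minus strand for *Rangap1* and chr4:132339995-132339997 on the minus strand for *Rcc1*.

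The channel nucleoporins are recognised by their FG repeats, and the 90-base window with the most phenylalanine-glycine codon pairs (TTT or TTC followed by GG and any base, in frame) is shown for each gene of the NUP62 complex, with the pairs in capitals. The windows begin at codon 1 of *Nup62*, codon 501 of *Nupl1* and codon 113 of *Nup54*, counted from the start codon.
Nup62: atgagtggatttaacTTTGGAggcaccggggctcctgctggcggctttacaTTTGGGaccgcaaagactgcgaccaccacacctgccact
Nupl1: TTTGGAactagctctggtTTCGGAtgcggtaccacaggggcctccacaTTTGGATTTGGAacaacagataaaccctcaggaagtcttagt
Nup54: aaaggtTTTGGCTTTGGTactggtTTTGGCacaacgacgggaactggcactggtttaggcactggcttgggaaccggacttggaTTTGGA
They lie at chr7:44828563-44828652 on the plus strand, chr14:60221587-60221676 on the minus strand and chr5:92430841-92430930 on the minus strand (GRCm38.p6). The *Nup62* window holds 2 pairs, and those of *Nupl1* and *Nup54* hold 4 each. Over the whole coding sequences *Nup62* has 6 pairs, *Nup54* 13 and *Nupl1* 14, while *Nup98* has 41 and *Nup214* 46.

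Depth differed between the genotypes, with 2479504 and 1384282 reads counted on genes in control replicates 1 and 2 against 223906 and 407979 in *Eef1g*-cKO replicates 1 and 2. The median member had 261 and 184 reads in control against 28 and 52 in *Eef1g*-cKO, so its level in *Eef1g*-cKO is the less precise of the pair. A count of 0 allows for 3 reads (95% confidence), a limit that covers counting error only, since copies made by PCR are not independent molecules. *Eef1g* itself had 107 and 58 reads in control against 0 and 4 in *Eef1g*-cKO. Its difference on the log2(FPKM + 1) scale was −3.39 (standard error 0.91, limma adjusted p = 0.073).

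Marker genes of cell types moved with genotype, those of the labelled stages and of pachytene upward and those of spermatogonia and Sertoli cells downward in *Eef1g*-cKO. The 12 markers of leptotene and zygotene spermatocytes were all in the table and together took 4262 and 3316 RPM (reads per 1000000 counted on genes) in control against 7869 and 7476 in *Eef1g*-cKO, and 10 of them were higher in *Eef1g*-cKO. Spermatogonial markers, 12 of 12 in the table and none higher in *Eef1g*-cKO, took 2690 and 3262 RPM in control against 464 and 463 in *Eef1g*-cKO. The 5 measured of 7 pachytene markers, 4 of them higher in *Eef1g*-cKO, took 453 and 329 in control against 1246 and 1140 in *Eef1g*-cKO. The 10 measured of 12 Sertoli cell markers, none higher in *Eef1g*-cKO and *Gata4* at 0 there, took 1321 and 330 in control against 299 and 211 in *Eef1g*-cKO. The 3 measured of 4 peritubular markers took 125 and 91.7 against 49.1 and 56.4, the 3 measured of 5 Leydig markers stayed between 4.90 and 11.6 in all 4 libraries with *Hsd3b1* and *Cyp11a1* at 0 in *Eef1g*-cKO, and the 3 measured of 7 spermatid markers took at most 28.9, with *Prm2* at 0 in *Eef1g*-cKO. None of the 5 macrophage markers was analysed here. These shifts stand beside every comparison of genotypes that follows, and their part in the results was not tested. In such sorted pools, fewer cells of a type and fewer RPFs per cell cannot be told apart from RPFs alone. By staining of sorted cells for SYCP3 and γH2AX, the paper found no significant difference between genotypes in the share of leptotene and zygotene spermatocytes. It also detected no pachytene spermatocytes in spreads from adult *Eef1g*-cKO testes.

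As a family the nuclear pore and transport genes kept nearly the same share of all RPFs. They took 9391 and 10119 RPM in control against 9258 and 9322 in *Eef1g*-cKO, or 9755 ± 514 against 9290 ± 44.7 (SD, n = 2 each). Both *Eef1g*-cKO sums lay below both control sums, by a difference of means smaller than the spread between the control libraries. The median log2 change of members (difference of the *Eef1g*-cKO from the control mean on the log2(FPKM + 1) scale, SE for its standard error throughout) was −0.07, against −0.23 for all 10475 genes tested. Of the 51 members 23 had a positive and 28 a negative value. An absolute log2 change under 0.5 was found for 29 members, 56.9% of them, and for 38.3% of all genes, but members are also the more abundant, with a median of 37.9 FPKM against 10.1. Both medians depend on the processing. Centring each library on its median adds 0.21 to every gene alike, and so took the median of all genes to −0.02 and that of members to 0.14. When the filter was raised to 5 FPKM, which 47 members passed, the median was −0.08 for all genes and −0.16 for members, so that members no longer lay above it.

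Few single members were called, and a member without a call is not shown to be unchanged. In simulated data of these depths, with 200 genes changed by 2 on the log2 scale, limma by adjusted p found only a small part of them. In the real data it called more genes than that, so the part found there may differ. *Kpna4* rose and *Rangap1* fell by limma, at a Benjamini-Hochberg adjusted p (over all genes tested) below 0.05 with a log2 change past 1. That is 1 member higher, beside 2.87% of all genes tested, and 1 member lower, beside 4.97%. By unadjusted p, 4 members were called higher (*Kpna4*, *Nup54*, *Kpna1* and *Nupl1*; 7.32% of all genes) and 2 lower (*Rangap1* and *Rcc1*; 16.3% of all genes). edgeR's quasi-likelihood test on the reads, at its adjusted p, kept 49 members and called these same 4 higher and the same 2 lower. Its shares of all genes it tested were 8.75% and 11.2%. DESeq2, at its adjusted p, called the same 4 higher (5.94% of all genes) and the same 2 lower (5.34%) of 49. Over all genes DESeq2 called 502 higher and 451 lower. The paper gives those same counts for increased and decreased RPF abundance, without naming its test. The share of members called higher was thus near the background. The share called lower was under it in each test, but it rests on 1 or 2 members and is no result about the family. In 16 members both *Eef1g*-cKO values exceeded both control values (24.6% of all genes), in 17 both were lower (37.7%), and in 18 the genotypes overlapped.

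**Figure D1:**
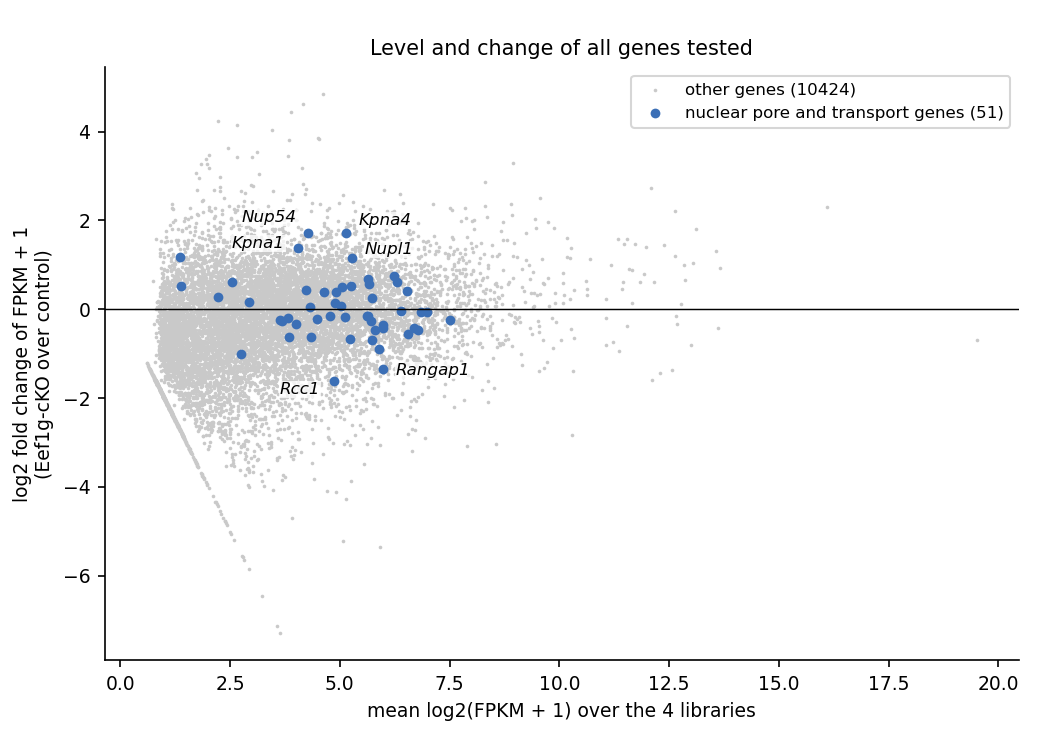
Mean log2(FPKM + 1) over the 4 libraries (x axis) against the log2 change of *Eef1g*-cKO over control (y axis) for 10424 other genes in grey and the 51 nuclear pore and transport genes in blue. The members lie between −1.63 and 1.72 and are mostly well expressed, and the 6 called by unadjusted p are named.

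**Figure D2:**
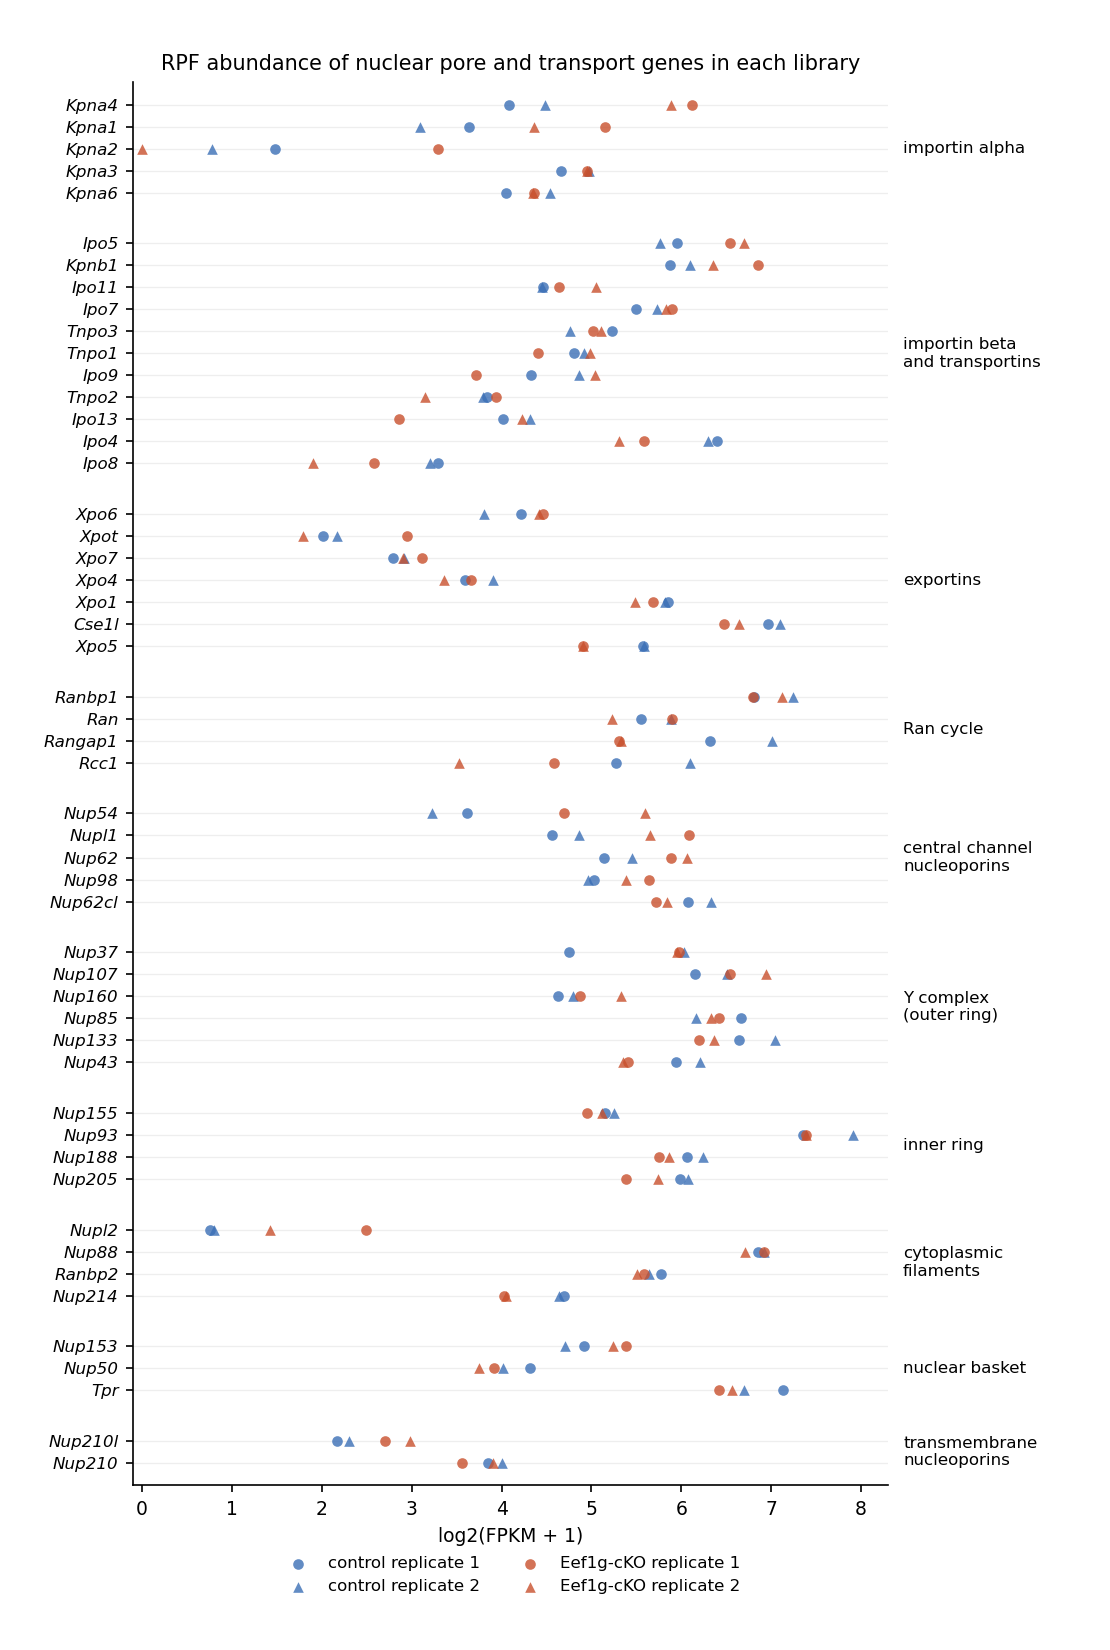
log2(FPKM + 1) of each member in each library, in rows by role, with control in blue, *Eef1g*-cKO in red, circles for replicate 1 and triangles for replicate 2. The colours are apart in 16 rows with *Eef1g*-cKO higher (*Kpna4* and *Nup54* among them) and 17 with it lower (*Rangap1* and *Rcc1* among them), and interleaved in 18 rows.

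Importin alpha genes, which encode the adaptors for classical nuclear localisation signals, held the increase that passed the adjusted p, and in *Kpna4* and *Kpna1* the genotypes did not overlap. *Kpna4* had 15.9 and 21.3 FPKM in control against 68.3 and 57.9 in *Eef1g*-cKO, on 147, 110, 57 and 88 reads. Every *Eef1g*-cKO value was thus more than any control value, and the replicates of each genotype were close. Its log2 change was 1.72 (SE 0.26, limma adjusted p = 0.032; edgeR 1.84, adjusted p = 5.4e-05). The gene lies on chromosome 3 from 69072221 to 69127092. *Kpna1* had 11.4 and 7.54 FPKM in control against 34.4 and 19.5 in *Eef1g*-cKO. Its genotypes did not overlap, but the replicates were farther apart. The log2 change of 1.39 (SE 0.40) missed the threshold in limma (adjusted p = 0.083) and met it in edgeR (adjusted p = 0.006).

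The other importin alpha genes gave no call. *Kpna3*, the closest paralog of *Kpna4*, had 24.4 and 30.3 FPKM in control against 30.0 in both *Eef1g*-cKO libraries, a log2 change of 0.14 (SE 0.25). *Kpna6*, a paralog of *Kpna1*, had 15.6 and 22.3 FPKM in control against 19.6 and 19.3 in *Eef1g*-cKO, a log2 change of 0.06 (SE 0.30). Both lay within the spread of control. *Kpna2* had few reads, 9, 2, 4 and 0, and no change can be read from it.

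The balance among the importin alpha genes differed between genotypes by more than between replicates, a description made without a test. Per kilobase of coding sequence, *Kpna4* made up 20.1% and 22.1% of the RPFs on these 5 genes in control against 39.8% and 41.2% in *Eef1g*-cKO. *Kpna3* went from 34.4% and 35.1% to 19.5% and 23.9%, and *Kpna6* from 29.3% and 34.3% to 17.0% and 20.5%. *Kpna3* thus led in both control libraries, closely followed by *Kpna6* in replicate 2, and *Kpna4* led in both *Eef1g*-cKO libraries. The ratio of *Kpna4* to *Kpna3* per coding kilobase was 0.583 and 0.629 in control against 2.04 and 1.73 in *Eef1g*-cKO. The share of *Kpna1* overlapped between genotypes, at 15.1% and 8.16% against 21.0% and 14.5%. Together the 5 genes took 332 ± 46.1 RPM in control and 589 ± 83.5 in *Eef1g*-cKO (SD, n = 2 each), a 1.77-fold difference in which the libraries did not overlap. Lack of overlap is common with so few libraries, at 24.6% of all single genes upward and 37.7% downward. No such background was taken for sums, so here and for the lists below it is a description only.

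Of the genes that load and discharge Ran, *Rangap1* fell and *Rcc1* had lower values, while *Ran* and *Ranbp1* overlapped between genotypes. *Rangap1*, the GTPase-activating protein of Ran, had 78.6 and 128 FPKM in control against 38.7 and 39.2 in *Eef1g*-cKO. The *Eef1g*-cKO libraries were almost equal and below both controls, which were farther apart. Its log2 change was −1.34 (SE 0.29, limma adjusted p = 0.049; edgeR −1.32, adjusted p = 0.002), and the gene lies on chromosome 15 from 81704248 to 81730798. *Rcc1*, the nucleotide exchange factor of Ran, had 37.6 and 67.4 FPKM in control against 23.0 and 10.5 in *Eef1g*-cKO, on 217, 217, 12 and 10 reads. The genotypes were apart and the replicates of each were not close. The log2 change of −1.63 (SE 0.46) missed the threshold in limma (adjusted p = 0.080) and met it in edgeR (adjusted p = 0.005).

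*Ran* itself had 46.0 and 58.1 FPKM in control against 58.6 and 36.4 in *Eef1g*-cKO, and the log2 change was −0.16 (SE 0.30, limma adjusted p = 0.75). *Ranbp1*, which helps RANGAP1 act on Ran, had 111 and 151 FPKM in control against 110 and 138 in *Eef1g*-cKO, and the log2 change was −0.07 (SE 0.25, limma adjusted p = 0.86). The genotypes overlapped for both, and neither value has a settled sign: with libraries centred on their medians *Ran* was at 0.05 and *Ranbp1* at 0.14, while edgeR gave −0.10 for *Ran* and 0.03 for *Ranbp1*. The ratio of *Rangap1* to *Ran* per coding kilobase was 0.824 and 1.06 in control against 0.319 and 0.519 in *Eef1g*-cKO, and that of *Rcc1* to *Ran* was 0.428 and 0.606 against 0.206 and 0.151. Neither ratio overlapped between genotypes. The 4 genes together took 663 ± 197 RPM in control and 370 ± 38.4 in *Eef1g*-cKO (SD, n = 2 each), 0.559 of the control value. The spermatogonial marker sum, given above, was lower in the same libraries, and its part in the values of *Rangap1* and *Rcc1* was not tested.

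**Figure D3:**
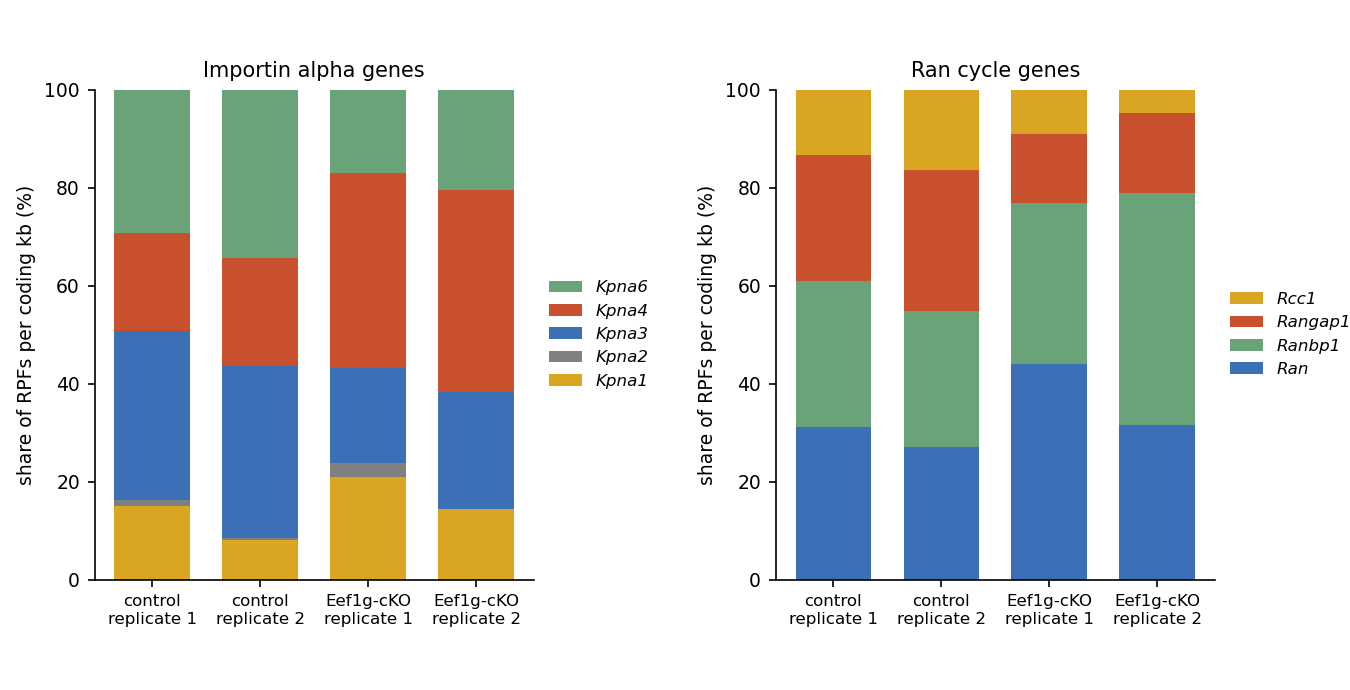
Share of the RPFs per kilobase of coding sequence (y axis, percent, stacked from 0 to 100) that each gene took within the importin alpha genes (left) and the Ran cycle genes (right), with 1 bar per library. The red *Kpna4* block grows from 20.1% and 22.1% to 39.8% and 41.2%, and the red *Rangap1* block shrinks from 25.7% and 28.7% to 14.0% and 16.4%.

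The 11 importin beta family genes gave no call in either direction, and their values lay on both sides of 0, from −1.0 to 0.76. *Kpnb1*, which encodes importin beta itself, had the highest FPKM of the list in the mean of all 4 libraries. In single libraries *Ipo4* was higher in both controls, and *Ipo5* in control replicate 1 and *Eef1g*-cKO replicate 2. *Kpnb1* had 57.8 and 67.6 FPKM in control against 115 and 80.9 in *Eef1g*-cKO, a log2 change of 0.62 (SE 0.25, limma adjusted p = 0.17). The libraries did not overlap, and with 1 library left out the value ran from 0.37 to 0.87. *Ipo5*, an importer of ribosomal proteins and histones, had the highest log2 change of the list, with 61.1 and 53.5 FPKM in control against 92.4 and 102 in *Eef1g*-cKO, a value of 0.76 (SE 0.21, adjusted p = 0.077). *Ipo4*, an importer of histones, had 83.3 and 77.4 FPKM in control against 47.0 and 38.7 in *Eef1g*-cKO, a log2 change of −0.90 (SE 0.22, adjusted p = 0.062). For both the replicates were close and the genotypes apart, but the differences stayed under a log2 change of 1. *Ipo8* had the lowest value at −1.0 (SE 0.44), resting on 6 reads in each *Eef1g*-cKO library, and ran from −1.34 to −0.66 with 1 library left out.

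The remaining importin beta family genes lay closer to 0 or had replicates that disagreed. *Ipo11* was at 0.39 and *Ipo7*, which carries ribosomal proteins, at 0.25. *Tnpo3*, the carrier of SR splicing factors, was at 0.07, and *Tnpo1* and *Tnpo2*, the transportins of hnRNP proteins, at −0.16 and −0.27. *Ipo9* was at −0.22 and *Ipo13* at −0.62, and for both the 2 *Eef1g*-cKO libraries disagreed by over 2-fold (12.2 and 31.8 FPKM, and 6.22 and 17.8). Together the 11 genes took 1762 ± 43.0 RPM in control and 2005 ± 17.9 in *Eef1g*-cKO (SD, n = 2 each), 1.14-fold, and the libraries did not overlap.

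Exportin genes gave no call, and 4 of the 7 had negative values, also with centred libraries. *Cse1l*, which returns importin alpha to the cytoplasm, was the most abundant with 123 and 135 FPKM in control against 88.0 and 98.6 in *Eef1g*-cKO, a log2 change of −0.47 (SE 0.20, limma adjusted p = 0.18). Its libraries were apart by less than the threshold on size. *Xpo5*, the exporter of microRNA precursors, had nearly equal replicates, 46.6 and 47.1 FPKM against 28.9 and 29.1, and a log2 change of −0.68 (SE 0.22, adjusted p = 0.11). *Xpo1*, the main carrier of proteins with leucine-rich export signals, had 56.8 and 55.6 FPKM against 50.4 and 43.8, a log2 change of −0.25 (SE 0.22). The tRNA exporter gene *Xpot* was low, at 3.03 and 3.50 FPKM against 6.71 and 2.46, and its genotypes overlapped. *Xpo4* was at −0.25, *Xpo7* at 0.15 and *Xpo6*, the exporter of actin, at 0.43. The 7 genes together took 1155 ± 28.6 RPM in control and 949 ± 35.0 in *Eef1g*-cKO (SD, n = 2 each), 0.821 of the control value, without overlap.

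**Figure D4:**
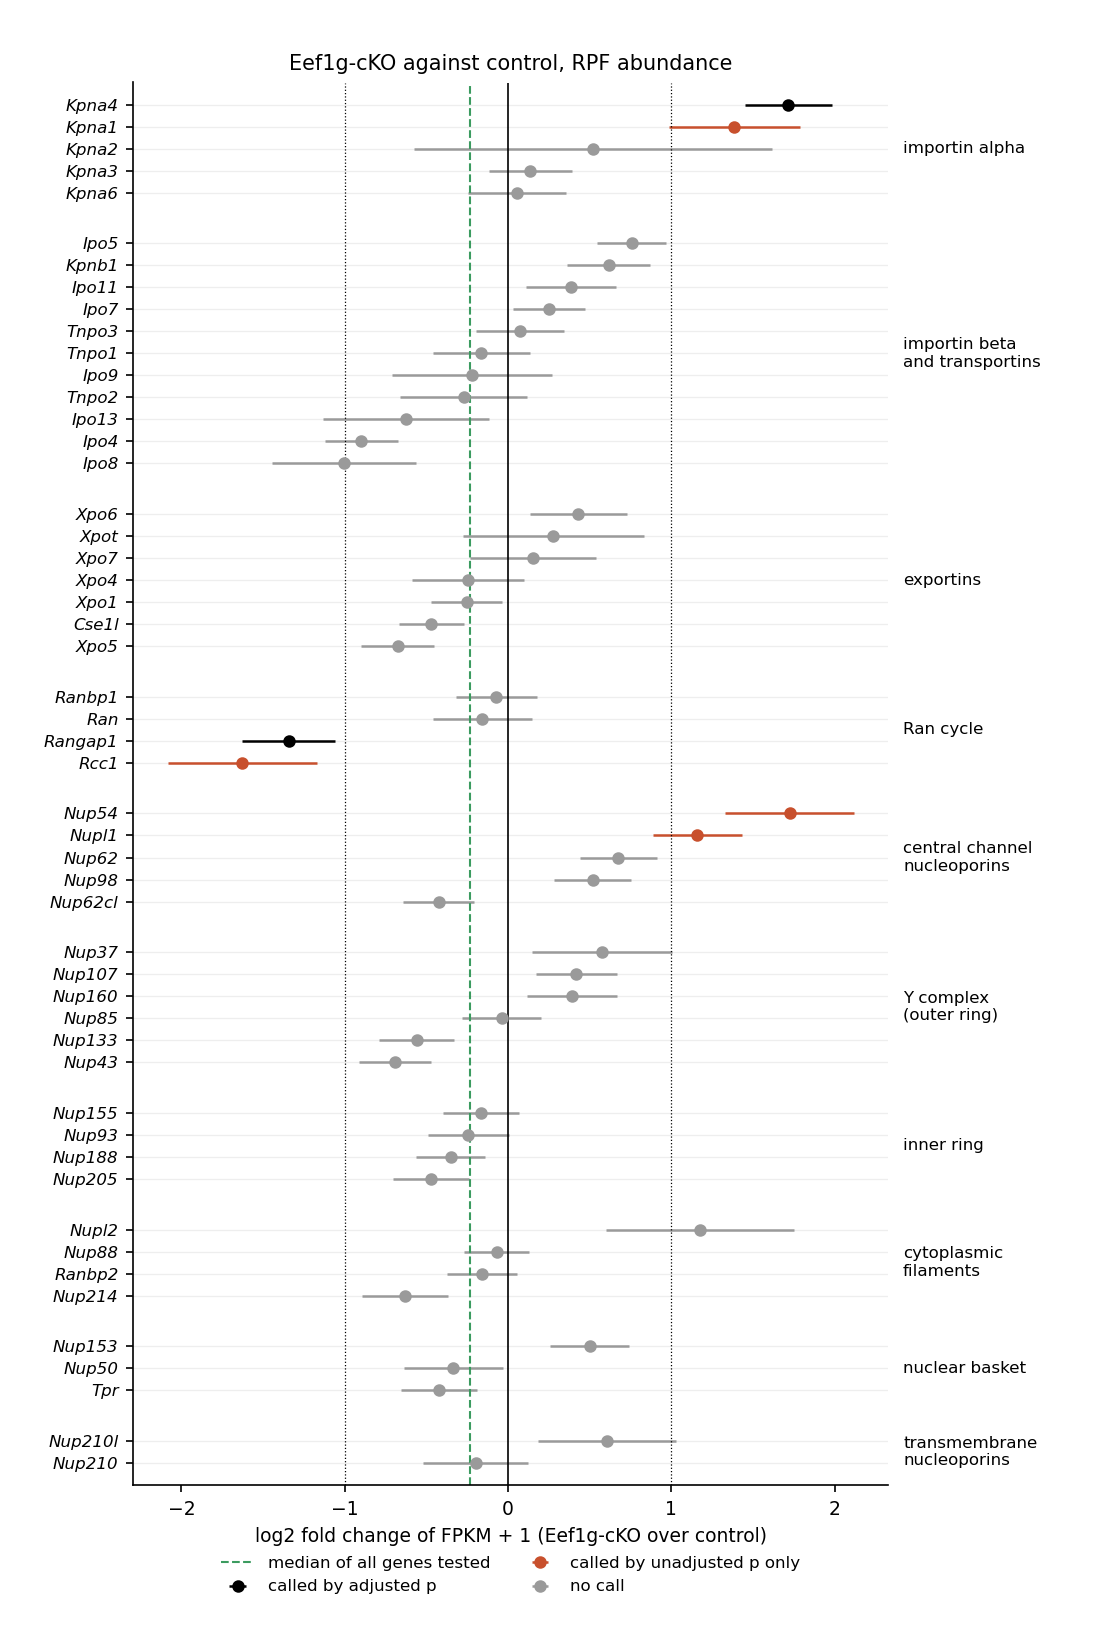
Log2 change of *Eef1g*-cKO over control on the log2(FPKM + 1) scale (x axis) for the 51 members in rows by role, with bars of 1 SE, n = 2 libraries per genotype. Black points passed the adjusted p, red points the unadjusted p only, dotted lines mark a change of 1 in each direction and the green line marks the median of all genes tested, −0.23.

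Among the 5 central channel genes the 4 that carry FG codon pairs had positive values and 2 of these passed the unadjusted p, while *Nup62cl*, which has 0 such pairs, had a negative value. *Nup54* had 11.2 and 8.36 FPKM in control against 24.9 and 47.3 in *Eef1g*-cKO, on 65, 27, 13 and 45 reads. The genotypes were apart, while the *Eef1g*-cKO libraries were not close to each other. Its log2 change was 1.72 (SE 0.39), with a limma adjusted p of 0.054 and an edgeR adjusted p of 0.002. *Nupl1*, the partner of NUP54 and NUP62 in the channel, had 22.6 and 28.1 FPKM in control against 67.2 and 49.1 in *Eef1g*-cKO. It had a log2 change of 1.16 (SE 0.27), with a limma adjusted p of 0.057 and an edgeR adjusted p of 0.004.

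*Nup62*, the third gene of this complex, had 34.3 and 42.7 FPKM in control against 58.1 and 65.8 in *Eef1g*-cKO. The log2 change of 0.68 (SE 0.23, limma adjusted p = 0.12) was under the threshold on size. *Nup98*, whose precursor is cleaved into a channel and an outer ring protein, had 31.6 and 30.1 FPKM against 49.0 and 40.7, a log2 change of 0.52. *Nup62cl*, the Nup62-like gene, was the most abundant of the list in control but not in *Eef1g*-cKO, with 66.5 and 79.4 FPKM against 51.5 and 56.5 and a log2 change of −0.42 (SE 0.22, limma adjusted p = 0.25). The 5 genes together took 511 ± 20.3 RPM in control and 800 ± 25.0 in *Eef1g*-cKO (SD, n = 2 each), 1.57-fold, with close replicates.

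Within the NUP62 complex the proportions were less steady than within the importin alpha genes. *Nup62* made up 52.9% and 56.5% of the RPFs per coding kilobase on *Nup62*, *Nup54* and *Nupl1* in control against 41.1% and 43.0% in *Eef1g*-cKO. The share of *Nup54*, 15.8% and 10.1% against 16.1% and 28.2%, was apart by a narrow gap, and that of *Nupl1* overlapped, at 31.3% and 33.4% against 42.8% and 28.9%.

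The Y complex of the outer ring was split. *Nup133* had the highest mean FPKM of the complex over the 4 libraries. In single libraries *Nup85* was higher in replicate 1 of both genotypes and *Nup107* in both *Eef1g*-cKO libraries. *Nup133* had 98.5 and 131 FPKM in control against 72.3 and 81.5 in *Eef1g*-cKO, a log2 change of −0.56 (SE 0.23, limma adjusted p = 0.17). *Nup107*, which binds NUP133 in the stem of the Y, had 70.0 and 89.7 FPKM against 92.4 and 122, a log2 change of 0.42 (SE 0.25, adjusted p = 0.30). Both pairs of genotypes were apart, in opposite directions, and neither difference passed the test. With 1 library left out *Nup133* ran from −0.76 to −0.36 and *Nup107* from 0.22 to 0.62. Of the RPFs per coding kilobase on the 6 genes, *Nup133* took 33.7% and 36.3% in control against 24.8% and 25.2% in *Eef1g*-cKO, and *Nup107* took 15.9% and 16.5% against 21.0% and 25.0%. *Nup43* was at −0.69, *Nup85* at −0.04, *Nup160* at 0.39 and *Nup37* at 0.57. The sum was level, with 1390 ± 191 RPM in control and 1284 ± 136 in *Eef1g*-cKO (SD, n = 2 each).

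All 4 inner ring genes had small negative values, 3 of them with centred libraries, where *Nup155* was positive, and none was called. *Nup93*, the scaffold of this ring and the member with the highest FPKM of all 51, had 163 and 240 FPKM in control against 166 and 167 in *Eef1g*-cKO, a log2 change of −0.24 (SE 0.25, limma adjusted p = 0.53). Its genotypes overlapped, since control replicate 1 lay below both *Eef1g*-cKO libraries. *Nup155* was at −0.16, *Nup188* at −0.35 and *Nup205* at −0.47, on either side of the median of all genes tested. Together the 4 genes took 1618 ± 225 RPM in control and 1293 ± 85.1 in *Eef1g*-cKO (SD, n = 2 each). That is 0.799 of the control value, and the libraries did not overlap.

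The outward and inward faces of the pore gave no call. On the cytoplasmic filaments *Nup88* had 114 and 120 FPKM in control against 120 and 104 in *Eef1g*-cKO, a log2 change of −0.07 (SE 0.20, limma adjusted p = 0.84) that was 0.14 with centred libraries. Its partner *Nup214* was lower in both libraries, with 24.9 and 24.0 FPKM against 15.3 and 15.6 and a log2 change of −0.63 (SE 0.26, adjusted p = 0.17). *Ranbp2*, the giant filament protein that anchors RANGAP1 at the pore, had 53.6 and 49.0 FPKM against 47.1 and 44.5, a log2 change of −0.16 that turned positive with centred libraries. *Nupl2* rested on 5, 3, 3 and 2 reads and carries no information on a change. The filament genes together took 1046 ± 23.8 RPM in control and 911 ± 57.4 in *Eef1g*-cKO (SD, n = 2 each). That is 0.871 of the control value, without overlap.

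In the nuclear basket *Tpr*, its main strut, had 139 and 103 FPKM in control against 84.6 and 93.5 in *Eef1g*-cKO, a log2 change of −0.42 (SE 0.23, limma adjusted p = 0.27) that was −0.21 without control replicate 1. *Nup153*, which tethers the basket to the pore, was at 0.50 and *Nup50*, which frees importin alpha from its cargo, at −0.34. The basket genes together took 1315 and 999 RPM in control against 951 and 985 in *Eef1g*-cKO, 0.837 of the control mean, apart by a narrow gap. Of the transmembrane nucleoporins *Nup210* had 13.4 and 15.1 FPKM against 10.8 and 13.9, a log2 change of −0.20 (SE 0.32, limma adjusted p = 0.70) that was 0.02 with centred libraries. Its paralog *Nup210l* was low, at 3.48 and 3.94 FPKM against 5.50 and 6.90, a log2 change of 0.61 (SE 0.42). The transmembrane genes together took 121 ± 10.2 RPM in control and 122 ± 21.3 in *Eef1g*-cKO (SD, n = 2 each). All 24 nuclear pore proteins, channel genes included, took 5843 ± 199 RPM in control and 5378 ± 184 in *Eef1g*-cKO. That is 0.920 of the control value, without overlap.

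The level of a gene relative to its paralog differed between genotypes in several pairs. On the log2(FPKM + 1) scale *Nup62* lay below *Nup62cl* in control, at −0.93 and −0.88, and above it in *Eef1g*-cKO, at 0.17 and 0.22. *Nup210* exceeded *Nup210l* by 1.69 and 1.70 in control and by 0.86 and 0.92 in *Eef1g*-cKO. *Ipo7* exceeded *Ipo8* by 2.21 and 2.52 in control and by 3.32 and 3.92 in *Eef1g*-cKO. For these pairs, as for *Kpna4* and *Kpna3*, the libraries of the genotypes did not overlap in the difference. *Nup210l* rested on 49 and 31 reads in control against 7 and 16 in *Eef1g*-cKO, and *Ipo8* on 117 and 61 against 6 and 6. Single genes were often apart too, 24.6% of all genes upward and 37.7% downward, and no such share was taken for pairs. *Tnpo1* over *Tnpo2* overlapped, at 0.97 and 1.12 against 0.47 and 1.84. Of the 51 coding sequences 50 share no run of 28 bases with the coding sequence of another gene in the table, and in *Nup188*, the exception, 0.0571% of such runs are shared. The loci of 32 members overlap another annotated locus, and reads there may be shared because the strand used in counting is not given in the sources used here. Among the members given above these include *Nup62* (with *Atf5* and *Il4i1b*), *Nup98* (*Art1* and *Pgap2*), *Nup88* (*Rabep1*), *Nup214* (*Fam78a*), *Tpr* (*Odr4* and *Prg4*), *Nup43* (*Pcmt1*), *Tnpo3* (*Irf5*), *Ipo11* (*Lrrc70*) and *Xpo7* (*Dok2*). All members called higher by unadjusted p are also among them: *Kpna4* (*Gm22009*), *Kpna1* (*Gm15564*), *Nup54* (*Gm42114*) and *Nupl1* (*Gm38641* and *Mir719*). *Rangap1* and *Rcc1*, the members called lower, overlap no other annotated locus.

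Codon composition went with the changes, a feature that the choice of members did not use. The share of codons that end in G or C (GC3) had a median of 50.9% over the members and 60.3% over all genes tested. The 4 members called higher by unadjusted p had a GC3 between 33.0% and 47.3%, and the 2 called lower were at 64.5% and 67.2%. Divided by GC3 into 3 sets of 17, the members reached median log2 changes of 0.39 in the lowest set, 0.06 in the middle and −0.24 in the highest. Across the 51 genes Spearman's rho between GC3 and the log2 change was −0.37, and across 10127 genes it was −0.30. Genes are not independent replicates, and all points share the same 4 libraries and their depths. With the GC3 trend of all genes removed, the log2 change of *Kpna4* was 1.15 (limma adjusted p = 0.071) and that of *Rangap1* −1.10 (adjusted p = 0.052), so neither call was kept, while both signs were. Of the other members called by unadjusted p, *Kpna1* was then at 0.91 and *Nupl1* at 0.59, both below the threshold on size, while *Nup54* at 1.39 and *Rcc1* at −1.27 stayed past it. *Ipo8* at −1.25, *Nup214* at −1.03 and *Nup43* were then also called lower by unadjusted p, and *Cse1l* went from −0.47 to −0.95.

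**Figure D5:**
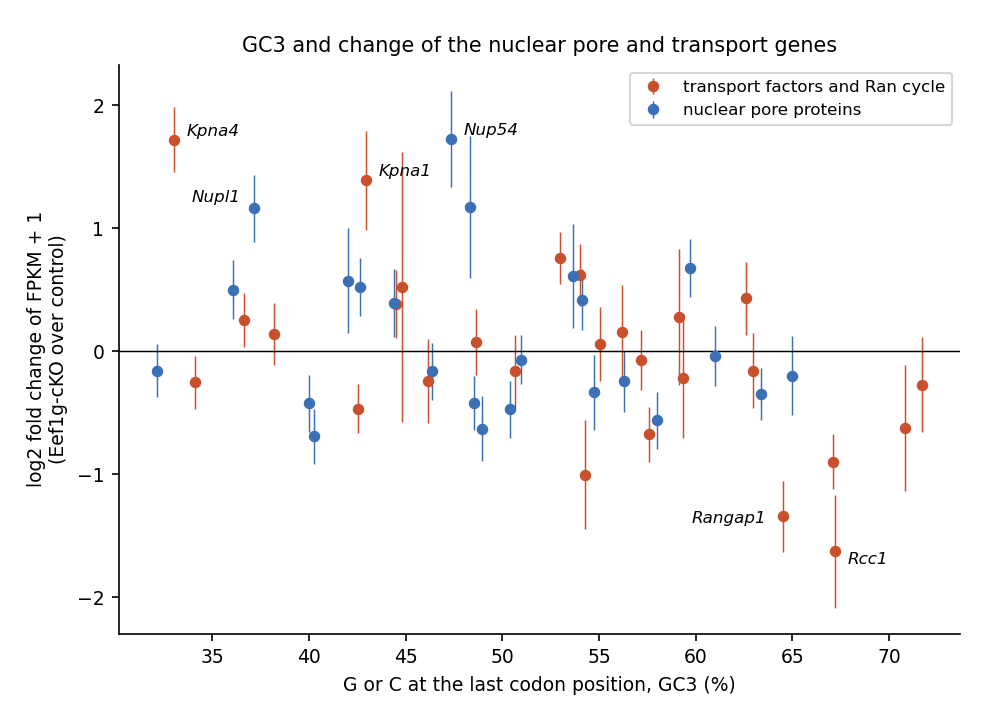
GC3, the percent of codons ending in G or C (x axis), against the log2 change of *Eef1g*-cKO over control (y axis) for the 51 members, with bars of 1 SE, transport factors and Ran cycle genes in red and nuclear pore proteins in blue. The members called higher lie at 47.3% or less and those called lower at 64.5% or more.

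A high number of FG codon pairs went with higher values only in part. The 10 members with 5 or more pairs reached a median log2 change of 0.51 and 6 positive values, and the 41 others a median of −0.16 and 17 positive values. Among the positive values is that of *Nupl2* (11 pairs, 1.17), whose 5, 3, 3 and 2 reads carry no information on a change. Those of *Nup54*, *Nupl1*, *Nup62* and *Nup98* belong to the channel genes given above. *Nup214*, with the most pairs of all, was at −0.63.

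The wider pathway held genes that differed more than most members. Of 44 further genes of pores, transport and mRNA export, listed with earlier results of these data known, 38 were measured, 2 were called higher by adjusted p and 1 lower, beside the 2.87% and 4.97% of all genes given above. *Eny2*, a subunit of the mRNA export complex TREX-2 and of SAGA, had 96.8 and 77.0 FPKM in control against 416 and 403 in *Eef1g*-cKO, a log2 change of 2.23 (SE 0.21, limma adjusted p = 0.021). *Nxt2*, a cofactor of mRNA export receptors, had 9.71 and 4.11 FPKM against 52.3 and 42.6, a log2 change of 2.70 (SE 0.42, adjusted p = 0.033). *Mcm3ap*, whose protein GANP is the scaffold of TREX-2, fell from 66.7 and 76.7 FPKM to 27.3 and 32.6, a log2 change of −1.23 (SE 0.23, adjusted p = 0.040). For all 3 the replicates were close relative to the difference. *Eny2* and *Mcm3ap*, both of TREX-2, thus stood on opposite sides.

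The calls rest on few libraries. Leaving out either control library removed every limma call by adjusted p in the whole table (by unadjusted p, 548 genes higher and 1013 lower without control replicate 1, and 479 and 795 without control replicate 2): the log2 change of *Kpna4* was then 1.52 or 1.92 (limma adjusted p = 0.19 or 0.16), and that of *Rangap1* was −1.69 without control replicate 1 and −0.99 without control replicate 2 (adjusted p = 0.091 or 0.19). Without *Eef1g*-cKO replicate 1 or 2, *Kpna4*, *Rangap1*, *Eny2* and *Nxt2* kept their calls, and *Mcm3ap* lost its call without *Eef1g*-cKO replicate 1 (log2 change −1.11, limma adjusted p = 0.062). In these fits *Eef1g*-cKO is a single library assumed to vary like the controls, so the calls say nothing about the spread within *Eef1g*-cKO.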

How the data were processed

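Ribo-seq of 2 control and 2 *Eef1g*-cKO libraries was analysed. The authors deposited 1 table with FPKM, scaled by gene length and by the reads on genes, and with normalized counts, a signal made by the authors from reads and size factors of the libraries. The normalized counts gave back whole reads for 100% of values (tolerance 0.001). These reads, set against the FPKM and gene lengths, gave totals of 2479504, 1384282, 223906 and 407979. The authors' own fold changes and p-values stand in the same table and were not used. The submitters' processing notes name cutadapt, Bowtie, STAR, mm10 and hg38; the counter, annotation and strand are not given in the sources used here.

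Genotypes were compared with limma 3.58.1 in R 4.3.3 on log2(FPKM + 1), with the prior variance following a trend. Genes needed a mean of 1 FPKM or more, and a call needed p below 0.05 with a log2 change past 1 in either direction. The limma standard errors and p-values combine a gene's spread between 2 libraries per genotype with the trend of that spread over all genes. They are thus not a measure of the gene's own spread alone. edgeR 4.0.16 and DESeq2 1.42.0 on the reads, other pseudocounts (0.1 and 5), filters, centring, the prior, a replicate block and each library left out were alternatives. Removal of the GC3 trend (20 bins) was added after seeing the data. The models were tested on simulated data of the same depths, with 200 genes changed by 2 on the log2 scale and a common dispersion. There limma by adjusted p found a small part of the changed genes and edgeR most of them. By unadjusted p limma called more unchanged genes lower than higher.

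Members, role lists, paralog pairs and markers were chosen with earlier results of these data known. Members are named with full statistics where called by adjusted p, highest in FPKM in their role list or in the Ran cycle list, other members where their list is described, and genes outside the family where called by adjusted p. Coding sequences and coordinates are of RefSeq Select transcripts in GRCm38.p6 (Python 3.11.15), and all 51 members matched by symbol.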

Additional observations from a re-analysis of the deposited data

How the results depend on the processing

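Every member printed with an adjusted p kept its sign under every alternative run except *Nup210*, *Nup88*, *Nup93*, *Ran* and *Ranbp1*. With libraries centred on their medians *Ran* was at 0.05, *Ranbp1* and *Nup88* at 0.14 and *Nup210* at 0.02. In edgeR *Ranbp1* was at 0.03 with and without its filter and *Nup88* at 0.00 with it, and in DESeq2 *Ranbp1* was at 0.01. With the GC3 trend removed *Ran* was at 0.01 and *Nup210* at 0.04. Without control replicate 2 *Ran* was at 0.01, *Ranbp1* at 0.15 and *Nup93* at 0.03, without *Eef1g*-cKO replicate 1 *Ranbp1* at 0.09, and without *Eef1g*-cKO replicate 2 *Ran* at 0.18 and *Nup88* at 0.04. With 1 library left out *Ran* ran from −0.49 to 0.18, *Ranbp1* from −0.29 to 0.15, *Nup93* from −0.52 to 0.03 and *Nup88* from −0.17 to 0.04. The cause was not tested. Of the members given only by their list, *Nup155*, *Ranbp2*, *Nup85* and *Tnpo1* turned positive with centring and *Ipo9* in edgeR and DESeq2.

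Calls of members by adjusted p, 1 higher and 1 lower, became 4 and 2 in edgeR (with and without its filter) and in DESeq2, 4 and 1 with the replicate block, 3 and 1 with a pseudocount of 5 or a filter at 5 FPKM, 3 and 0 with centring, 1 and 0 without a filter, and 0 and 0 with a pseudocount of 0.1, with the prior without a trend and with the GC3 trend removed. By unadjusted p the 4 higher and 2 lower became 2 and 5 with the GC3 trend removed. Leaving out 1 library gave 0 to 4 members higher and 0 to 2 lower by adjusted p, and 1 to 6 and 0 to 4 by unadjusted p.

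The median of members, −0.07, was −0.16 with a pseudocount of 0.1 or a filter at 5 FPKM, 0.14 with centring, −0.00 in edgeR with and without its filter, −0.01 in DESeq2 and −0.21 with the GC3 trend removed, and ran from −0.19 to 0.03 with 1 library left out. *Eef1g*, at −3.39, passed the adjusted p in edgeR (−2.68 with and without its filter), with a pseudocount of 5 (−2.10) and with the replicate block (−3.39), and ran from −4.82 to −1.96 with 1 library left out.

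Over all genes 301 were higher and 521 lower by adjusted p. Centring gave 521 and 383, edgeR 705 and 904, DESeq2 502 and 451, the replicate block 424 and 822, a pseudocount of 0.1 gave 29 and 47, no filter 205 and 373, and the prior without a trend 0 and 0 (793 and 1811 by unadjusted p). Same-numbered libraries did not deviate together (r = −0.01). This cannot decide whether they were paired, since counting error at a median of 5 and 8 reads per gene in *Eef1g*-cKO also lowers r. The main fit did not pair them. Depth limits members with few reads, *Kpna2*, *Nupl2*, *Ipo8*, *Xpot* and *Ipo13* first.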
